A study of Mus musculus with 10 samples.

Results

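The genes described here encode the constitutive proteasome: every row whose symbol is Psma, Psmb, Psmc or Psmd followed by a number, apart from the immunoproteasome genes Psmb8, Psmb9 and Psmb10, with a mean of at least 1 RPKM over all libraries in each of 2 tables. RPKM is a read count scaled to transcript length and library depth, so that levels of different genes can be set side by side. 35 genes met the rule, 15 of the 20S core (Psma and Psmb) and 20 of the 19S cap (Psmc and Psmd), among the 10809 and 10842 genes tested in the tables of T-5224 and SB431542. The mean level came closest to the limit for Psma8 at 1.70 RPKM in the SB431542 table, and Psmb11, a thymus subunit at 0.024 RPKM there, was left out.

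RNA-seq was performed on ASZ001, a mouse basal cell carcinoma (BCC) line that grows despite Smoothened inhibitors, so all groups come from one line. Cells were held for 24 h in low serum medium with 0.2% chelated FBS and with DMSO, with 20 µM T-5224 or with 10 µM SB431542. T-5224 blocks binding of the AP-1 transcription factor to DNA, and SB431542 blocks ALK5, the TGFß type I receptor. The T-5224 table holds 2 DMSO and 2 T-5224 libraries and the SB431542 table holds 3 DMSO and 3 SB431542 libraries. Each inhibitor was set against the DMSO libraries of its own table, and the question is which genes of the cell depend on either pathway.

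The proteasome degrades proteins that carry ubiquitin chains. Its 20S core is a barrel of outer rings of alpha subunits, which form the gate, and inner rings of beta subunits, of which Psmb5, Psmb6 and Psmb7 are the proteases. The 19S cap sits on the gate: a ring of ATPases (Psmc genes) unfolds the substrate, scaffolds and receptors in its base hold the ubiquitin chain, and a lid with the deubiquitinase Psmd14 cuts the chain off. Cells that lose proteasome activity are known to raise many subunit genes together through the transcription factor Nfe2l1, which binds antioxidant response elements with small Maf proteins.

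The libraries hold between 31.9 and 51.4 M reads, worked out from the steps that whole reads leave in the RPKM of short genes, and the member with the fewest reads was Psma8. In the T-5224 experiment, depth differed by group: 31.9 and 39.1 M reads in DMSO, 51.4 and 49.3 M with T-5224. Keratinocyte genes were abundant, with Krt5 at 5916 and 6087 RPKM and Krt14 at 5468 and 5948 RPKM in DMSO in the T-5224 table. Ptprc, Cdh5, Col1a1 and Col3a1, which mark immune, endothelial and fibroblast cells, were at most at 0.102 RPKM in any library that lists them, and Pdgfra and Pmel at most at 0.580 RPKM, whereas Cd68 and Pecam1 were detected, at 16.7 and 18.6 RPKM and at 10.7 and 11.8 RPKM in the same libraries. With T-5224, 7 of the 8 keratinocyte and BCC markers were lower (87.5%, against 39.4% of all genes tested), and Ptch1 was higher by 0.34 on the log2 scale. Cd68 was higher by 0.89 and Pecam1 lower by 1.27. With SB431542, 4 of the 8 markers were lower (50%, against 10% of all genes tested) and 0 higher. Pecam1 was lower by 0.97 there, and Cd68 was not called. DMSO replicate 1 of the SB431542 experiment stood apart: 28 of 35 members lay outside the range of the other 5 libraries there, against 62.7% of all genes tested, and the ribosomal transcript Rn45s was at 770 RPKM against 1868 to 2229 RPKM in the others. In the T-5224 experiment, T-5224 replicate 1 was above T-5224 replicate 2 in 34 of 35 members and in 75.8% of all genes tested, with Rn45s at 1862 and 5184 RPKM. Whether these had a part in the results was not tested.

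In DMSO, the core and the cap had close median levels, while single subunits ranged from 2.90 to 249 RPKM in the T-5224 table and from 1.74 to 231 RPKM in the SB431542 table. The median member of the core was at 103 RPKM and that of the cap at 81.3 RPKM in the T-5224 table, and at 101 and 83.6 RPKM in the SB431542 table. Psmb1, an inner ring subunit, was the most abundant in the T-5224 table at 249 RPKM, and Psma2, an outer ring subunit, in the SB431542 table at 231 RPKM. Psma8, a form of Psma7 known from testis, was the least abundant in both, at 2.90 and 1.74 RPKM. Psmd10 (gankyrin) and Psmd9 (p27), which help to assemble the base and are not part of the finished particle, were the next lowest of the cap, at 10.8 and 14.2 RPKM in the T-5224 table and 7.31 and 12.3 RPKM in the SB431542 table. Since the tables were normalized separately, no level was tested between them.

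A few members had unlike DMSO levels in the tables. Psma3 was at 5.94 RPKM in the T-5224 table and at 41.8 RPKM in the SB431542 table, a ratio of 0.142. The ratio was 0.194 for Psma5, 0.371 for Psmb3, 0.485 for Psma4 and 0.507 for Psmd11, and between 0.712 and 1.69 for the other 30 members. Of the transcript of Psma5, 78.8% had a match of at least 98% identity over 50 bases or more elsewhere in mm9, and this was 54.6% for Psmd11, 30.4% for Psma3 and 99.9% for Psmb5, whose ratio was 0.869. The other 31 members had no such match, but some had copies of lower identity. Psmb3 had 7 of up to 97.5% and Psma4 had 1 of 97.4%, and of the members whose ratio was nearer to 1, Psmd2 (0.819) had 2 of up to 97.03%, Psmc1 (0.722) 2 of up to 94.6%, Psmb6 (1.20) 1 of 92.2% and Psmb1 (1.19) 1 of 91.2%. How reads that fit several places were counted is not given in the sources used here, and its part in these levels was not tested. Levels of Psma3, Psma4, Psma5, Psmb3, Psmb5 and Psmd11 are therefore uncertain, and counts are also given without these 6 genes.

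**Figure D1:**
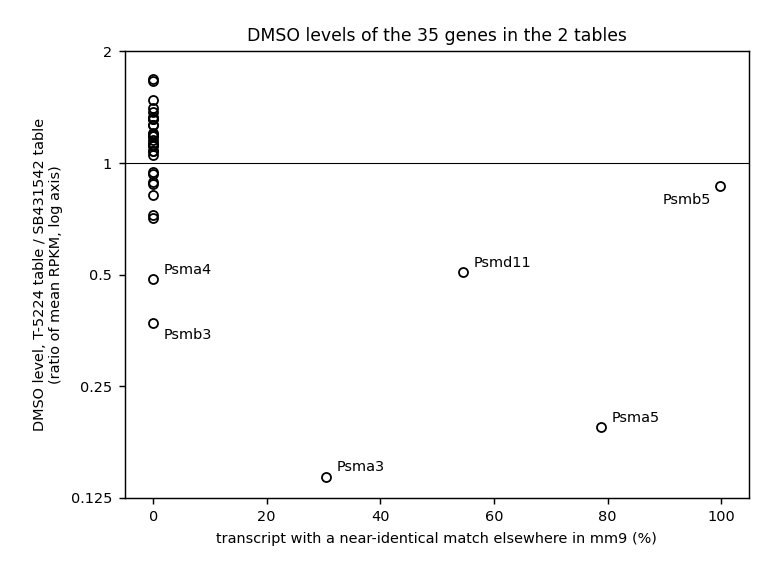
Ratio of the mean DMSO level (RPKM) in the T-5224 table to that in the SB431542 table (log axis) against the share of each transcript with a near-identical match elsewhere in mm9, for the 35 members. Psma3, Psma5, Psmb3 and Psma4 sit below 0.5, and Psmb5 sits at 0.869 with 99.9% matched.

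With T-5224, most core subunits rose and the cap split. In the core, 14 of 15 genes were higher and 0 lower, with a median log2 fold change of 0.32, and in the cap 11 of 20 were higher and 5 lower, with a median of 0.22 (limma, adjusted p under 0.05 over all genes tested). The inhibitor changed a large part of the transcriptome: 40.3% of all genes tested were higher and 39.4% lower, with a median of 0.00, so the shares of 93.3% of the core and 55% of the cap higher are to be read against 40.3%. With quantile normalization, 14 core genes were higher and 0 lower, and 11 cap genes were higher and 7 lower, Psmd1 and Psmd3 being added to the lower ones. The median log2 fold change was then 0.23 in the core and 0.15 in the cap. Without the 6 genes of uncertain level, 10 of 10 core genes were higher, and 10 of 19 cap genes were higher and 5 lower. Most changes were small. With a fold change over 2 as well, 2 members were higher (Psma8 and Psmc2) against 10.4% of all genes, and 0 were lower against 10.6%. The T-5224 libraries lay above both DMSO libraries in 26 members (14 of the core, 12 of the cap) against 45.1% of all genes, and below both in 6 members of the cap against 44.5%.

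The summed level of the core was 1633 and 1615 RPKM in the DMSO libraries and 2174 and 2056 RPKM with T-5224, a ratio of means of 1.30. The summed level of the cap was 1693 and 1688 RPKM in DMSO and 2176 and 2090 RPKM with T-5224, a ratio of 1.26. Psmc2 alone made up 52.1% of the rise of the cap, and without it the ratio was 1.14. Neither sum overlapped between the groups. In bulk RNA, a change in the mix of cells and a change of RNA per cell cannot be told apart. Within the cap, the ATPase ring went from 581 and 567 RPKM to 912 and 869 RPKM, whereas the lid went from 723 and 730 RPKM to 789 and 766 RPKM. Psmc2 made up 72.8% of the rise of the ring, and the other 5 ATPases together went from 416 and 403 RPKM to 509 and 482 RPKM, a ratio of 1.21 against 1.55 for the whole ring. RPKM is a share of the reads of a library. In the same libraries, the keratin genes Krt5, Krt14 and Krt17 were far lower with T-5224. Krt5 was at 599 and 579 RPKM, Krt14 at 826 and 791 RPKM and Krt17 at 748 and 695 RPKM, against 3035 and 3134 RPKM for Krt17 in DMSO. The part of that shift in the members' levels was not tested.

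**Figure D2:**
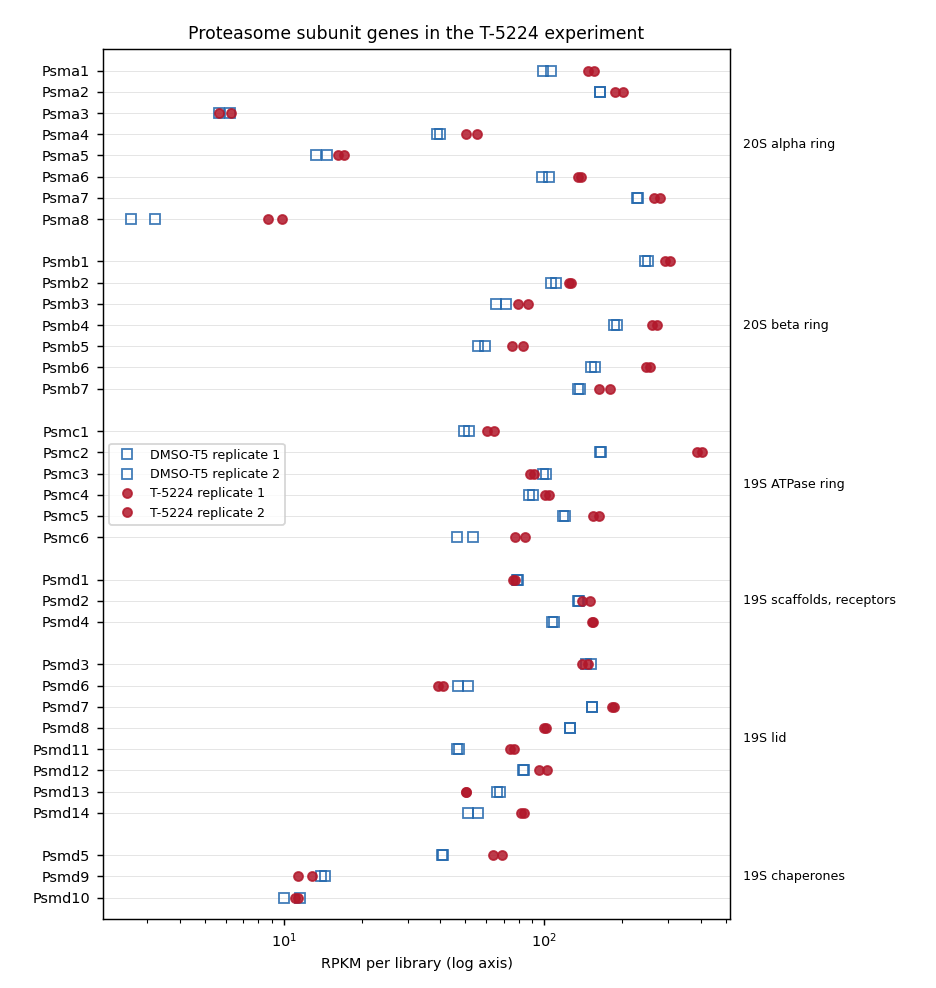
RPKM (log axis) of each member in the DMSO libraries (open squares) and in the T-5224 libraries (filled circles), by position in the particle. The T-5224 libraries lie to the right of the DMSO libraries in every beta ring gene, and Psmc2 and Psma8 are set furthest apart.

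Among the outer ring genes, 7 of 8 rose (87.5%) and 0 fell, against 40.3% and 39.4% of all genes tested. Psma1 (mm9 chromosome 7, 121408120 to 121419632) was at 107 and 99.6 RPKM in DMSO and at 156 and 148 RPKM with T-5224, a log2 fold change of 0.56 ± 0.06 (SE, adjusted p = 2.56e-06). Psma6 was at 105 and 98.8 RPKM in DMSO and at 139 and 136 RPKM with T-5224. Both genes had T-5224 libraries above both DMSO libraries, as had 45.1% of all genes tested. Psma7, the most abundant of the ring in this table, was at 230.4 and 229 RPKM and rose to 278 and 264 RPKM, a log2 fold change of 0.24 ± 0.05 (adjusted p = 0.00102). Psma2 was at 165 and 164 RPKM in DMSO and at 202 and 188 RPKM with T-5224. Psma4 and Psma5, whose levels are uncertain, were called higher with log2 fold changes of 0.42 and 0.24. The call of Psma5 was lost without DMSO replicate 1 (adjusted p = 0.0548) and without T-5224 replicate 1 (adjusted p = 0.0853). Psma3 was the one core gene not called, at 6.23 and 5.65 RPKM in DMSO and 6.29 and 5.66 RPKM with T-5224 (adjusted p = 0.949), in the table where its level was 0.142 of that in the other.

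Psma8 had the largest change of all members. It was at 3.20 and 2.61 RPKM in DMSO and at 9.90 and 8.71 RPKM with T-5224, a log2 fold change of 1.53 ± 0.11 (adjusted p = 1.1e-07). Its T-5224 libraries lay above both DMSO libraries, as in 45.1% of all genes tested. With T-5224 it was still far below Psma7, at 278 and 264 RPKM in the same libraries.

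All 7 inner ring genes rose (100%), the proteases among them, against 40.3% of all genes tested. Psmb6 (mm9 chromosome 11, 70338869 to 70341360), the caspase-like protease, was at 158 and 151 RPKM in DMSO and at 255 and 246 RPKM with T-5224, a log2 fold change of 0.70 ± 0.05 (adjusted p = 1.86e-07). Psmb5 (mm9 chromosome 14, 55232644 to 55236851), the chymotrypsin-like protease and the main target of proteasome inhibitor drugs, was at 56.1 and 59.6 RPKM and then at 83.3 and 75.3 RPKM, a log2 fold change of 0.45 ± 0.06 (adjusted p = 3.86e-05). Psmb7 (mm9 chromosome 2, 38443556 to 38499607), the trypsin-like protease, was at 136 and 138 RPKM and then at 179 and 162 RPKM, a log2 fold change of 0.32 ± 0.06 (adjusted p = 0.00032). Each protease gene had groups that did not overlap, with T-5224 above as in 45.1% of all genes tested. The transcript of Psmb5 is one with near-identical matches elsewhere. The inner ring subunits that are not proteases rose as well. Psmb4 was at 186 and 191 RPKM in DMSO and at 271 and 259 RPKM with T-5224 (log2 fold change 0.49 ± 0.05), and Psmb1 was at 252 and 246 RPKM and then at 306 and 292 RPKM (0.26 ± 0.05). The smallest rise was that of Psmb2, from 111 and 106 RPKM to 127 and 125 RPKM (0.21 ± 0.05, adjusted p = 0.00281).

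In the ATPase ring, 5 of 6 genes rose (83.3%) and Psmc3 fell (16.7%), against 40.3% and 39.4% of all genes tested. Psmc2 (mm9 chromosome 5, 21291101 to 21309605), the ATPase Rpt1, was at 165 RPKM in both DMSO libraries and at 403 and 387 RPKM with T-5224, a log2 fold change of 1.26 ± 0.05 (adjusted p = 1.04e-09). It was the most abundant member of all with T-5224, while its DMSO level ranked 4 of 35. Psmc6 (Rpt4) was at 53.5 and 46.3 RPKM in DMSO and at 84.9 and 77.5 RPKM with T-5224 (0.70 ± 0.07), and Psmc5 (Rpt6) was at 120.2 and 118 RPKM and then at 163 and 155 RPKM (0.41 ± 0.05). Psmc1 (Rpt2) and Psmc4 (Rpt3) rose by less, with log2 fold changes of 0.30 and 0.20. Psmc3 (mm9 chromosome 2, 90894166 to 90906526), the ATPase Rpt5, went the other way, from 102 and 99.5 RPKM to 92.0 and 88.1 RPKM, a log2 fold change of -0.16 ± 0.05 (adjusted p = 0.0137). Its T-5224 libraries lay below both DMSO libraries, as in 44.5% of all genes tested. The call was lost without DMSO replicate 1 (log2 fold change -0.14) and without T-5224 replicate 2 (-0.13).

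In the rest of the base, the ubiquitin receptor Psmd4 (Rpn10; mm9 chromosome 3, 94836616 to 94846536) rose from 108 and 109 RPKM to 154 and 153 RPKM, a log2 fold change of 0.50 ± 0.05 (adjusted p = 2.22e-06). The large scaffolds did not pass the test. Psmd2 (Rpn1) was at 136 RPKM in both DMSO libraries and at 150.3 and 140.2 RPKM with T-5224 (0.09 ± 0.05, adjusted p = 0.127), and Psmd1 (Rpn2) was at 79.2 and 78.8 RPKM and then at 77.4 and 75.9 RPKM (-0.04 ± 0.05, adjusted p = 0.437). With quantile normalization, Psmd1 was called lower (-0.17 ± 0.04, adjusted p = 0.00364). Of the chaperones that bring the base together, Psmd5 (S5b; mm9 chromosome 2, 34707608 to 34726459) rose from 41.1 and 40.8 RPKM to 68.9 and 63.6 RPKM (0.69 ± 0.06, adjusted p = 5.62e-07). Psmd9 fell from 14.4 and 14.0 RPKM to 12.8 and 11.3 RPKM (-0.23 ± 0.08, adjusted p = 0.0164), a call lost without T-5224 replicate 2 (adjusted p = 0.189). Psmd10 was at 10.1 and 11.5 RPKM in DMSO and 11.4 and 11.1 RPKM with T-5224, with groups that overlapped.

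In the lid, 4 of 8 genes were higher (50%), 3 were lower (37.5%) and Psmd3 was not called, shares close to the 40.3% and 39.4% of all genes tested. Psmd3 was called lower with quantile normalization (-0.15 ± 0.04, adjusted p = 0.00783). Psmd14 (Rpn11; mm9 chromosome 2, 61549751 to 61638433), the deubiquitinase, was at 55.9 and 50.9 RPKM in DMSO and at 83.7 and 81.9 RPKM with T-5224, a log2 fold change of 0.63 ± 0.06 (adjusted p = 1.35e-06). Psmd11 (Rpn6), which clamps the lid to the core and whose level is uncertain, was at 46.4 and 47.2 RPKM and then at 76.9 and 73.8 RPKM (0.68 ± 0.05, adjusted p = 3.06e-07). Psmd7 (Rpn8), the partner of Psmd14 in the lid, and Psmd12 (Rpn5) rose by less, with log2 fold changes of 0.27 and 0.24. The falls were of Psmd13, Psmd8 and Psmd6, which encode Rpn9, Rpn12 and Rpn7, structural subunits of the lid. Psmd13 (mm9 chromosome 7, 148067867 to 148084542) was at 65.9 and 67.6 RPKM in DMSO and at 50.4 and 50.1 RPKM with T-5224, a log2 fold change of -0.41 ± 0.05 (adjusted p = 2.19e-05). Psmd8 (mm9 chromosome 7, 29959207 to 29965692) was at 126 RPKM in both DMSO libraries and at 102 and 100.3 RPKM with T-5224 (-0.31 ± 0.05, adjusted p = 0.000116). Psmd6 (mm9 chromosome 14, 14944698 to 14953498) was at 46.9 and 50.9 RPKM and then at 39.3 and 41.1 RPKM (-0.28 ± 0.06, adjusted p = 0.00125). All 3 had T-5224 libraries below both DMSO libraries, as had 44.5% of all genes tested. Each kept a negative log2 fold change with each library left out in turn. In the annotation, 11 members overlap a gene on the other strand: 5 of the 25 that rose (Psma4, Psma5, Psma6, Psmb7, which overlaps Nek6, and Psmd14), 3 of the 5 that fell (Psmd13, which overlaps Sirt3, Psmc3, which overlaps Slc39a13, and Psmd9), and 3 of the 5 that were not called (Psma3, Psmd1 and Psmd3). Whether strand was used in the counting is not stated in the sources used here, and without it the reads of such pairs could not be told apart.

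**Figure D3:**
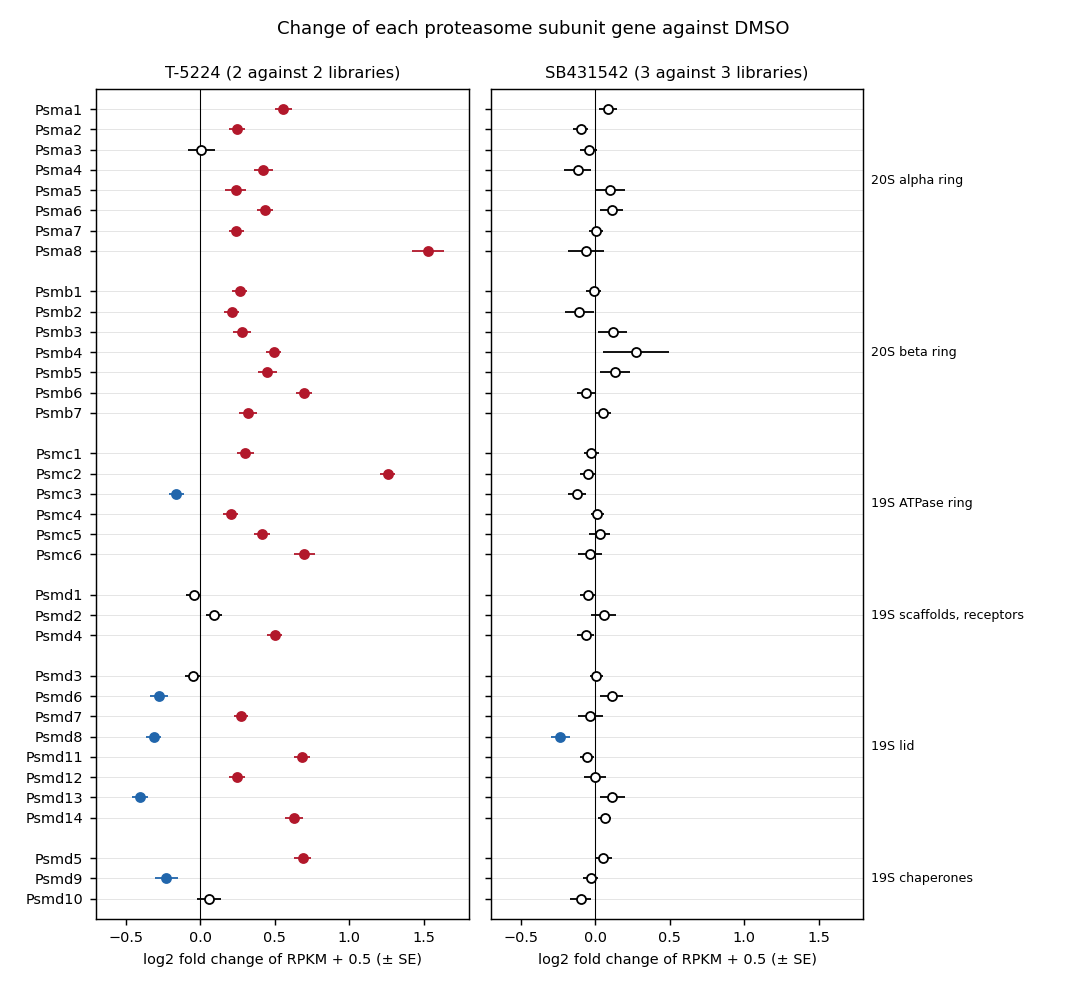
Log2 fold change of RPKM + 0.5 against DMSO (points) with its standard error (bars) for each member with T-5224 and with SB431542. Red points were called higher and blue points lower (limma, adjusted p under 0.05), and open points were not called: 25 and 5 members with T-5224, and 0 and 1 with SB431542.

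Short sequence elements before the start of the member genes were looked up, since many members moved in one direction with T-5224 and Nfe2l1 and AP-1 bind elements of related sequence. RefSeq promoters of GRCm38.p6, another build than that of the expression values, were found for 28 of the 35 members, and not for Psmd3, Psma8, Psmc3, Psmd7, Psmb2, Psmb1 and Psmb7. The 250 bases before the start were searched on both strands. The core of the antioxidant response element, TGACNNNGC, was in 5 of the 28 (17.9%), against 14.05% of the 8454 genes tested with T-5224 that have a promoter in the table. These are shown as the members with a match, with the element in capitals, along the strand of the gene:
Psmb5, chr14:54618009-54618067, minus strand: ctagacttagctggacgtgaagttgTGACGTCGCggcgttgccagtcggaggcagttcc
Psmb6, chr11:70525323-70525356, plus strand: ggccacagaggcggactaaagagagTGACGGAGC
Psmc6, chr14:45329574-45329630, plus strand: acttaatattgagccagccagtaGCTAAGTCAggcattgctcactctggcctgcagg
Psmd12, chr11:107479278-107479314, plus strand: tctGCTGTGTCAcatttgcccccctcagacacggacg
Psmd9, chr5:123228134-123228189, plus strand: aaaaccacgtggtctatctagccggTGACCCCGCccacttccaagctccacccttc

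In Psmb5 and Psmb6, the genes of 2 of the proteases, the element reads along the gene and starts 47 and 9 bases before its start, and in Psmc6 and Psmd12 it reads along the other strand, 227 and 247 bases before. In Psmd9 the element also reads along the gene and starts 31 bases before its start. Of these 5 genes, 4 rose with T-5224 and Psmd9 fell, where 71.4% of all members and 40.3% of all genes tested rose. The AP-1 element TGANTCA, which can share its first letters with the antioxidant response element, was in 1 of the 28 (3.6%), again Psmd9, against 5.29% of the tested genes, and there it starts 126 bases before the start, apart from the other element. The CCAAT box was in 11 (39.3%) against 41.0%. The ETS element CCGGAAG was in 9 (32.1%) against 17.3%, and is shown for Psmc2, the cap gene with the largest rise, which has a match before each of its annotated starts, and for the receptor Psmd4:
Psmc2, chr5:21785166-21785222, plus strand: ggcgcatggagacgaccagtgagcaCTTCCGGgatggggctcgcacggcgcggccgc
Psmc2, chr5:21786698-21786746, plus strand: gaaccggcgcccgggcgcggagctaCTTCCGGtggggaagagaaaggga
Psmd4, chr3:95042708-95042764, minus strand: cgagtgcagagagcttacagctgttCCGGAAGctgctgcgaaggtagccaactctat
The members with the ETS element also include Psma6, Psmc1, Psmc6, Psmd11, Psmd12, Psmd2 and Psmd6, of which Psmd2 was not called and Psmd6 fell. A match is a run of letters, and binding was not measured by these data.

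With SB431542, 1 proteasome gene passed the test. In the core, 0 of 15 genes were higher and 0 lower, and in the cap 0 of 20 were higher and 1 was lower (limma, adjusted p under 0.05), against 10.2% of all genes tested higher and 10% lower. At an unadjusted p under 0.05 the counts of the members were the same, 0 higher and 1 lower, against 19.1% of all genes tested higher and 17.0% lower. The median log2 fold change was 0.01 in the core and -0.03 in the cap, against 0.01 over all genes tested. With a fold change over 2 as well, 0 members were called in either direction, against 0.231% of all genes higher and 0.581% lower. The SB431542 libraries lay above all DMSO libraries in 1 member, against 23.9% of all genes, and below all in 4 members, against 21.3%. The 95% interval of the change lay within 1.5-fold in either direction for 34 of the 35 members, and that of Psmb4 reached 1.73-fold higher. DMSO replicate 1 widens these intervals, and without it the log2 fold changes of the members lay between -0.18 and 0.08.

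The summed core was at 1636, 1708 and 1764 RPKM in the DMSO libraries and at 1741, 1734 and 1701 RPKM with SB431542, groups that overlapped. The summed cap was at 1610.5, 1596 and 1598 RPKM in DMSO and at 1582, 1577 and 1575 RPKM with SB431542, groups that did not overlap but whose means had a ratio of 0.985. Psmd8, the lid subunit Rpn12, was the one gene called, at 99.0, 87.5 and 87.7 RPKM in DMSO and at 78.6, 79.8 and 74.2 RPKM with SB431542, a log2 fold change of -0.23 ± 0.07 (adjusted p = 0.0431). Its groups did not overlap, with SB431542 below as in 21.3% of all genes tested. Without DMSO replicate 1 its log2 fold change was -0.18 ± 0.04 (adjusted p = 0.00827), but the call was lost when any other library was left out (adjusted p between 0.0567 and 0.161) and under 5 other settings. Psmd8 thus was lower with each inhibitor in its own table, by 0.31 with T-5224 and by 0.23 with SB431542 on the log2 scale, values that were not tested against each other.

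**Figure D4:**
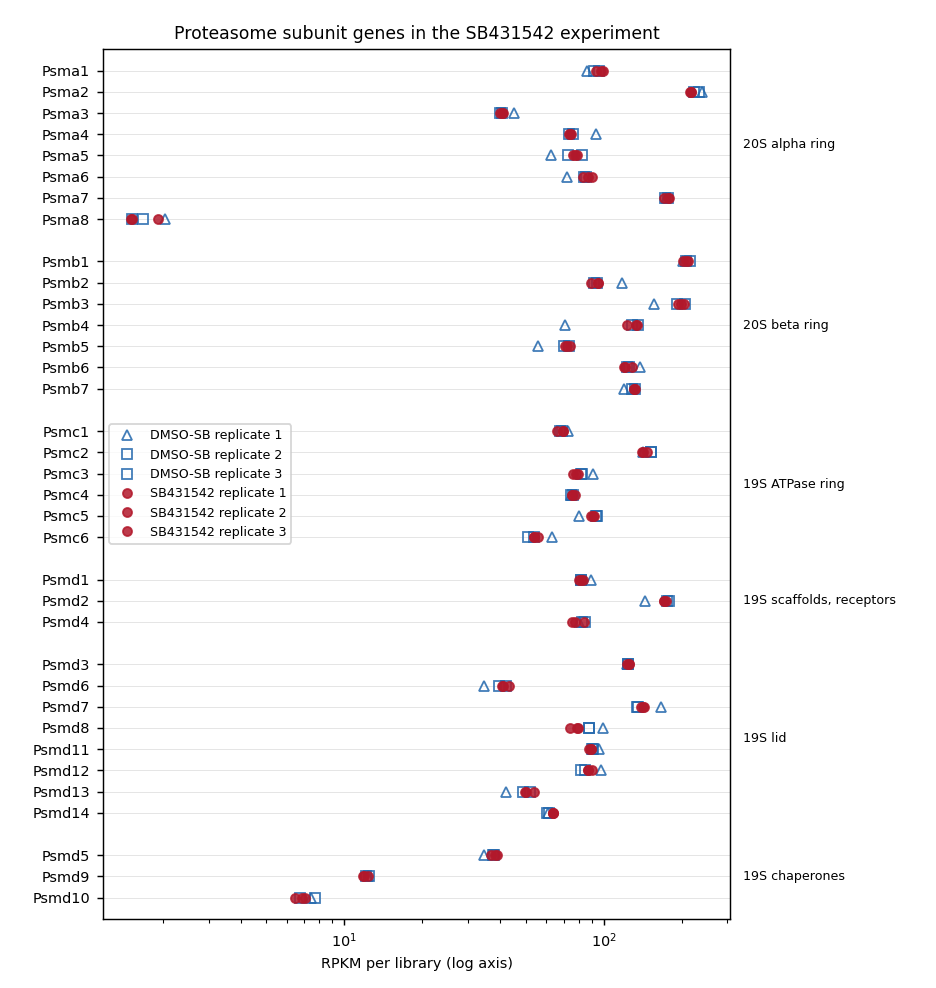
RPKM (log axis) of each member in the DMSO libraries (open squares, and triangles for DMSO replicate 1) and in the SB431542 libraries (filled circles). The triangles stand apart from the other 5 libraries in 28 of 35 members, and the other symbols overlap in most rows.

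The members that changed most with T-5224 were not called with SB431542. Psmc2 was at 142, 152 and 152 RPKM in DMSO and at 147, 141 and 142 RPKM with SB431542 (log2 fold change -0.05 ± 0.05), and Psma8 was at 2.03, 1.52 and 1.67 RPKM and then at 1.92, 1.51 and 1.52 RPKM (-0.06 ± 0.12). Among the proteases, Psmb6 had a log2 fold change of -0.06 ± 0.06, Psmb5 of 0.13 ± 0.10 and Psmb7 of 0.05 ± 0.05. The largest positive value was that of Psmb4, 0.27 ± 0.22, and it rests on DMSO replicate 1: the gene was at 71.2, 129 and 135 RPKM in DMSO and at 133, 134 and 124 RPKM with SB431542, and without that library the value was -0.02. Psmd14 was the one member with all SB431542 libraries above all DMSO libraries, at 63.6, 64.0 and 63.5 RPKM against 61.0, 61.6 and 60.4 RPKM, a log2 fold change of 0.06 ± 0.04 (adjusted p = 0.338). Across the 35 members, the change with T-5224 and that with SB431542, on the log2 scale, had a Pearson correlation of 0.05 and a Spearman correlation of 0.05, where over the 10462 genes tested in both tables these were 0.44 and 0.41. With SB431542, 34 of the 35 members were not called, so their correlation rests mostly on changes that did not pass the test. The points share no libraries but are not independent, and these values are a description.

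The genes around the particle were looked at in lists. Of the 5 chaperones that assemble the 20S core, 4 were higher with T-5224 (80%) and Pomp was lower (20%). Of all genes tested, 40.3% were higher and 39.4% lower. Psmg1, which pairs with Psmg2 to set up the alpha ring, was at 19.2 and 18.6 RPKM in DMSO and at 43.4 and 41.5 RPKM with T-5224, a log2 fold change of 1.14 ± 0.06 (adjusted p = 9.36e-09). Psmg2 was at 16.4 and 15.8 RPKM and then at 35.8 and 33.5 RPKM (1.08 ± 0.06), Psmg4 had a log2 fold change of 0.97 and Psmg3 of 0.55. Pomp, which joins the beta rings and is used up in the process, fell from 175 and 174 RPKM to 142 and 137 RPKM (-0.32 ± 0.05, adjusted p = 0.000107). With SB431542, 0 of the 5 were called, against 10.2% of all genes tested higher and 10% lower.

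Among the activators that can take the place of the cap and the inhibitor Psmf1, 3 of 6 were higher (50%) and 3 lower (50%) with T-5224, shares close to those of all genes tested. Psme1 and Psme2, the subunits of the interferon-inducible 11S activator, fell: Psme1 went from 24.1 and 26.1 RPKM to 13.3 and 13.9 RPKM (-0.86 ± 0.07, adjusted p = 2.92e-07), and Psme2, whose transcript has near-identical matches over 82.5% of its length, had a log2 fold change of -0.52. The other lower gene, Psme2b, went from 38.8 and 36.9 RPKM to 25.6 and 26.5 RPKM (-0.53 ± 0.06). In DMSO, Psme2 was at 5.28 RPKM in the T-5224 table and at 29.1 RPKM in the SB431542 table. Psme2b was at 37.9 and 2.11 RPKM there. How reads were shared between Psme2 and Psme2b was not tested, so their levels are uncertain and their falls may not be separate. Psme3, the nuclear activator, and Psme4 rose, with log2 fold changes of 0.35 and 0.69. The immunoproteasome genes were low. Psmb8 was at most at 0.132 RPKM and Psmb9 at most at 1.11 RPKM in any library, both under the limit for a test, and Psmb10 was at 9.66 and 8.77 RPKM in DMSO and at 8.84 and 10.7 RPKM with T-5224, groups that overlapped (adjusted p = 0.487). With SB431542, Psmb10 rose from 6.18, 6.64 and 6.69 RPKM to 7.78, 8.14 and 8.64 RPKM (0.31 ± 0.07, adjusted p = 0.0184). There, 0 of the 6 activators and inhibitor were called, against 10.2% of all genes tested higher and 10% lower.

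Of 6 factors that bind the cap, 4 were higher with T-5224 (66.7%) and 0 lower, against 40.3% and 39.4% of all genes tested. Uchl5, a deubiquitinase, rose from 15.7 and 13.2 RPKM to 42.3 and 39.6 RPKM (1.48 ± 0.08, adjusted p = 1.46e-08). Adrm1, the ubiquitin receptor that holds Uchl5, had a log2 fold change of 0.89, with near-identical matches over 88.5% of its transcript. The DMSO mean of Uchl5 was 14.4 RPKM in the T-5224 table and 30.8 RPKM in the SB431542 table, a ratio of 0.468. For Adrm1 these were 13.7 and 84.0 RPKM, a ratio of 0.163, so the levels of both genes are uncertain. Of 4 ubiquitin precursor and activating genes, 2 were higher (50%, against 40.3% of all genes tested) and 0 lower. One of them, Rps27a, which encodes ubiquitin fused to a ribosomal protein, was at 5.31 RPKM in DMSO in the T-5224 table and at 704 RPKM in the SB431542 table, with near-identical matches over 69.0% of its transcript, so its rise to 9.39 and 10.2 RPKM with T-5224 is uncertain. Ubb, which encodes a chain of ubiquitins, went from 279.5 and 279 RPKM to 433 and 461 RPKM (0.68 ± 0.05, adjusted p = 2.64e-07), with near-identical matches over 78.2% of its transcript. Shuttle factors that carry ubiquitylated proteins to the cap were higher in 3 of 5 (60%, against 40.3% of all genes tested), led by Ubqln1 (0.53 ± 0.06). Ubqln2 and Ddi2 were not called. Genes of the p97 complex, which extracts proteins for degradation, were higher in 7 of 9 (77.8%), against 40.3% of all genes tested. Vcp, the p97 ATPase itself, was the one lower, from 102 and 107 RPKM to 86.1 and 81.2 RPKM (-0.32 ± 0.05, adjusted p = 0.000215). Its transcript had near-identical matches over 98.3% of its length, and its DMSO mean was 104 RPKM in the T-5224 table and 311 RPKM in the SB431542 table. Over all 45 genes tested in these pathway lists, 28 were higher and 7 lower with T-5224, and 5 were higher and 3 lower with SB431542, with medians of 0.39 and 0.01. These are 62.2% higher and 15.6% lower with T-5224, against 40.3% and 39.4% of all genes tested, and 11.1% higher and 6.67% lower with SB431542, against 10.2% and 10%.

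**Figure D5:**
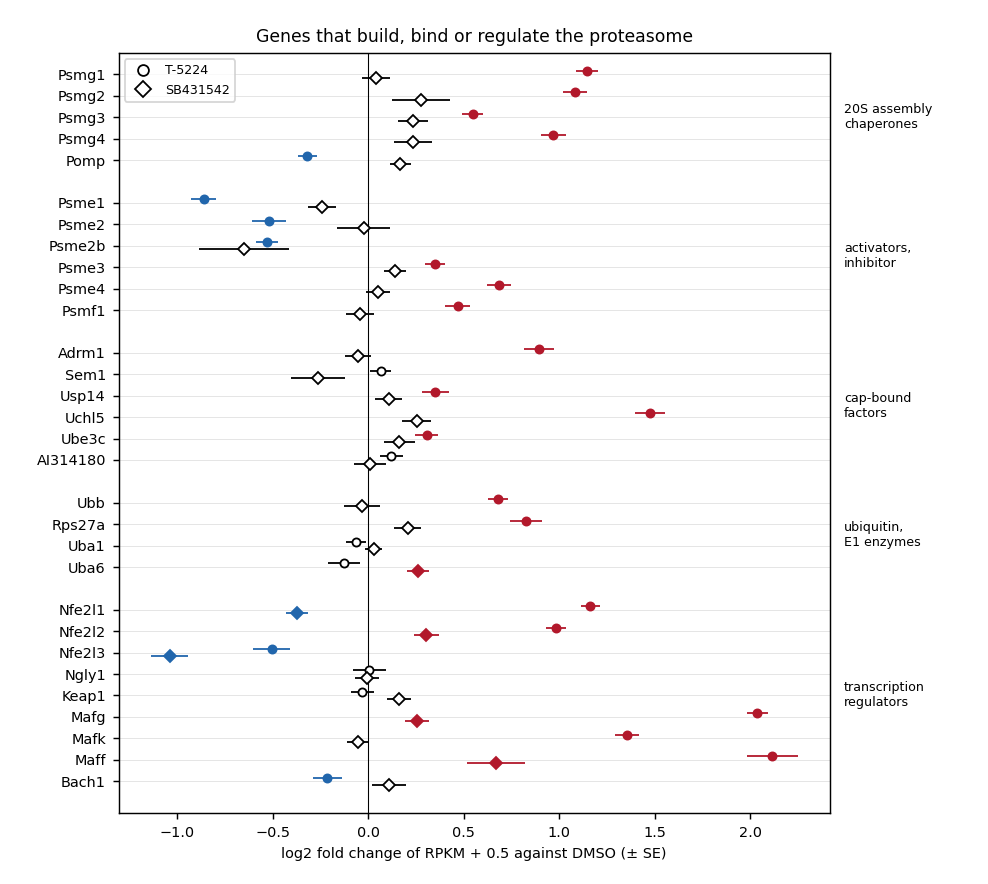
Log2 fold change of RPKM + 0.5 against DMSO with its standard error for genes that assemble, activate, bind or regulate the proteasome, with T-5224 (circles) and SB431542 (diamonds). Red and blue symbols were called higher and lower (limma, adjusted p under 0.05) and open symbols were not called: Maff and Mafg lie furthest right with T-5224, and Nfe2l3 lies left with both.

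Of 9 regulators of proteasome genes, 5 were higher (55.6%) and 2 lower (22.2%) with T-5224, against 40.3% and 39.4% of all genes tested. With SB431542, 3 were higher (33.3%) and 2 lower (22.2%), against 10.2% and 10% of all genes tested. Nfe2l1, which drives subunit genes when activity falls, was at 173 and 181 RPKM in DMSO and at 403 and 391 RPKM with T-5224, a log2 fold change of 1.16 ± 0.05 (adjusted p = 2.43e-09). With SB431542 it went the other way, from 130.3, 123 and 123 RPKM to 98.5, 101 and 91.5 RPKM (-0.37 ± 0.06, adjusted p = 0.00601). Groups did not overlap in either table. Of all genes tested, 45.1% likewise lay above with T-5224 and 21.3% below with SB431542. Nfe2l2, the oxidative stress regulator, rose with T-5224 from 41.2 and 40.0 RPKM to 81.0 and 80.5 RPKM (0.98 ± 0.05) and with SB431542 from 30.9, 27.4 and 26.8 RPKM to 35.2, 35.8 and 34.3 RPKM (0.30 ± 0.07, adjusted p = 0.0195). Their small Maf partners rose with T-5224: Mafg was at 25.6 and 26.3 RPKM in DMSO and at 110.4 and 105 RPKM with T-5224 (2.04 ± 0.05), Mafk had a log2 fold change of 1.36 and Maff of 2.12. With SB431542, Mafg and Maff were called higher, by 0.26 and 0.67, and Mafk was not. Nfe2l3 fell with each, by 0.51 with T-5224 and by 1.04 with SB431542 on the log2 scale. Bach1, which represses antioxidant response elements, fell by 0.21 with T-5224. Transcript levels do not give the activity of these factors, which are known to be set largely by protein stability and cleavage.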

How the data were processed

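Total RNA of ASZ001 cells was made into stranded mRNA libraries. Per the labels and the study's methods, the authors aligned reads to mm9 with TopHat and made the deposited RPKM per gene with HOMER, and the handling of reads with several matches and the strand setting are not given in the sources used here. Rows with a date in place of a gene symbol (23 for T-5224 and 22 for SB431542) were dropped, and 0 columns of values were unused. DMSO replicates of the T-5224 experiment go by the numbers of their columns, 1 and 2, which the labels give as 4 and 5.

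Genes with a mean of at least 1 RPKM were tested on log2(RPKM + 0.5) with limma 3.58.1 (R 4.3.3), empirical Bayes, a trend of variance on level, and two-sided p-values adjusted by Benjamini-Hochberg over all genes tested, at 0.05. Fold changes on this scale understate those of low genes. The study describes the samples as biological, yet p-values measure only the spread between these libraries, and 2 against 2 is few. The fit was tested on simulated data in which few genes changed, by more than most members did here. Data like those with T-5224, where most genes were called, were not simulated. Alternatives were pseudocounts of 0.1 and 1, no minimum or 5 RPKM, an unadjusted p, a 2-fold limit, median centring, quantile normalization, no trend, the replicate number as a block, and each library left out. Leaving out genes of uncertain level, or Psmc2 from the sums, was added after seeing the data. The members and gene lists were chosen with earlier results of these data known. A few genes of the lists are not reported here and were left out of the list counts. Genes named are, in each class and experiment, the highest and lowest members, the proteases, Psmd14, Psmd2, Psmd4, those called against their compartment, and for other lists the highest, lowest and called genes, with further members added as context after their values were seen.

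Positions are from GENCODE for NCBIM37, the assembly of mm9. Transcripts were matched to that genome with blastn 2.17.0. Reads per library were read from RPKM of genes under 250 bases with fewer than 6 reads, of which at least 98.8% lay within 0.05 of a whole read. Promoter sequences are from RefSeq.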

Additional observations from a re-analysis of the deposited data

How the results depend on the processing

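With T-5224, 48 of 52 alternative counts were within 1.5 times the reported ones. With the 2-fold limit, 1 core and 1 cap gene were higher and 0 cap genes lower. With each library left out, 13 to 14 core genes and 11 cap genes were higher and 3 to 5 cap genes lower, the 3 being without T-5224 replicate 2. The median log2 fold change was then 0.25 to 0.39 in the core and 0.19 to 0.26 in the cap, lowest without T-5224 replicate 1. Quantile normalization gave 0.23 and 0.15, with 7 cap genes lower, and leaving out the 6 genes of uncertain level gave 0.38 for the core. Psma3 lay between -0.063 and 0.077 when 1 library was dropped. With SB431542, the 1 lower cap gene became 0 with no filter on low values, the 2-fold limit, median centring, no trend and the replicate block, and lay between 0 and 1 when 1 library was dropped. The replicate block gave 0 core genes in either direction. Same-numbered libraries had correlations of deviations of -0.15, 0.15 and -0.09, so the numbers were not taken as pairs. The cap median was between -0.038 and -0.00036 when 1 library was dropped, nearest 0 without DMSO replicate 1. Psmc5 was at -0.0099 under quantile normalization, and when 1 library was dropped Psmb2 ranged from -0.17 to 0.0092, Psmb4 from -0.021 to 0.44, Psmc5 from -0.045 to 0.069 and Psmd2 from -0.043 to 0.11, each changing sign without DMSO replicate 1. The cause of these changes was not tested. No paired analysis was possible for T-5224 because the labels give its groups no number in common, and the column numbers, which differ from those of the labels, were not taken as pairs. The reads behind a member, estimated with the length of its longest annotated transcript, gave a counting error of at most 9.70% for Psma8. For any other member it was at most 5.11%. The length behind the deposited RPKM is not known, and with a shorter one these errors would be larger.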
